A study of Mus musculus with 31 samples.

Results

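Of the 15 kidney libraries labelled HET for Nbl1, 4 held almost no Nbl1 reads and 11 held an intermediate level, and the 2 classes were compared here over all other genes. The members were chosen by the measured Nbl1 level. A library was placed in the near-absent class when its Nbl1 level, in CPM (counts per 1e+06 of the library's total count), was below 15% of the mean of the WT libraries of the same treatment. The near-absent class had 2 of the 7 libraries labelled HET PBS and 2 of the 8 labelled HET cisplatin, and the intermediate class had the other 5 and 6. The classes were read from the Nbl1 measurement and not from a label, so Nbl1 itself is described without a test, and neither class is given a genotype other than the label HET.

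The animals were male mice on a B6 background, labelled WT or HET for Nbl1, and received cisplatin or phosphate-buffered saline (PBS) for 4 weeks from 8 weeks of age. Kidneys were taken 3 days after the treatment, at a stated 11 weeks, an age that the other times given do not add up to. Cisplatin, a cancer drug that binds DNA, is taken up by proximal tubule cells and injures them. The whole series has 31 libraries, 1 per animal number, with 8 WT and 7 HET animals given PBS and 8 of each label given cisplatin. Allele type, drug dose and strand setting were not given in these sources, and no group carries another allele in the labels.

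Nbl1 encodes a secreted protein of the DAN family, which binds bone morphogenetic proteins (BMPs) outside the cell and keeps them from their receptors. BMPs that do reach their type I and type II receptors lead to phosphorylation of Smad1, Smad5 and Smad9, which join Smad4 and switch on genes such as the Id genes, Smad6 and Smad7. In the kidney, BMP7 made by tubule cells is known for its part in nephron formation and in the response to injury, and several secreted antagonists limit it. Htr6, the next gene downstream of Nbl1 on the same strand, encodes a serotonin receptor that signals through cyclic AMP and is best known from the brain.

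Nbl1 lies at chr4:139082284-139092993 and Htr6 at chr4:139061108-139075570 of GRCm38 (GENCODE M21), both on the minus strand, with 6713 bases between the end of Nbl1 and the start of Htr6. Nbl1 sets the classes and Htr6 is the neighbour described beside it, so the stretch before each gene's start is shown, from 250 to 31 bases upstream of the RefSeq start (GRCm38.p6, minus strand, read 5′ to 3′). The Nbl1 stretch is chr4:139093001-139093220 and the Htr6 stretch is chr4:139075601-139075820. Capitals mark the GC box letters GGGCGG on either strand.
Nbl1: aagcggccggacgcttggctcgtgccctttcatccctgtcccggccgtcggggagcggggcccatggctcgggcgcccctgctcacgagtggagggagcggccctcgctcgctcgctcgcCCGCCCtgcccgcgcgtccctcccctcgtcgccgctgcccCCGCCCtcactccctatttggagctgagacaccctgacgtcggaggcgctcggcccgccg
Htr6: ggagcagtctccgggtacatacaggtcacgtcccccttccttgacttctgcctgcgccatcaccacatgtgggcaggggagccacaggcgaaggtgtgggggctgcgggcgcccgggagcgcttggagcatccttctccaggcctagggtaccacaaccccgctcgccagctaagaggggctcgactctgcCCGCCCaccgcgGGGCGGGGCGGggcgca
The Nbl1 stretch had 75.5% G and C, 30 CG steps and 2 GC boxes on the opposite strand, and the Htr6 stretch had 69.5% G and C, 17 CG steps, 2 GC boxes as printed, which overlap by their outermost base, and 1 on the opposite strand. Over 32851 such windows of 220 bases in the RefSeq table the median was 51.8% G and C with 5 CG steps, and 28.5% held the motif on either strand. A match describes the letters only, and says nothing of a factor bound there.

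In the PBS libraries, Nbl1 was at 0.0917 CPM (3 counts) in HET PBS 1 and 0.368 CPM (13 counts) in HET PBS 6. These levels were 1.65% and 6.59% of the WT PBS mean of 5.58 ± 1.17 CPM (SD, n = 8). The 5 intermediate PBS libraries held 3.30, 3.52, 2.80, 3.13 and 3.18 CPM (HET PBS 2, 3, 4, 5 and 7). They sat between 50.2% and 63.1% of the WT mean, far from the near-absent pair and close to one another.

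In the cisplatin libraries, Nbl1 was at 1.19 CPM (37 counts) in HET cisplatin 3 and 0.971 CPM (31 counts) in HET cisplatin 4. These were 5.02% and 4.09% of the WT cisplatin mean of 23.8 ± 5.89 CPM (SD, n = 8). The 6 intermediate libraries held 11.7, 11.99, 8.49, 4.96, 11.8 and 16.7 CPM (HET cisplatin 1, 2, 5, 6, 7 and 8). They were spread more widely than under PBS, from 20.9% to 70.1% of the WT mean. The member nearest the 15% cutoff from inside was HET PBS 6 at 6.59% (95% exact Poisson interval of its count 3.51% to 11.3%), and the nearest outside was HET cisplatin 6 at 20.9% (17.6% to 24.5%). Cutoffs of 10% and of 15% selected the same 4 libraries, and a cutoff of 25% added HET cisplatin 6.

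The cisplatin level of Nbl1 was above the PBS level in each class. The ratio of summed CPM was 4.25 in WT (95% exact Poisson interval 4.01 to 4.5), 3.42 in the intermediate class (3.1 to 3.77) and 4.6 in the near-absent class (2.64 to 8.5). The near-absent ratio rests on 68 cisplatin and 16 PBS counts. The classes were cut on Nbl1 within each treatment, so these ratios are a description only. Poisson intervals cover counting error only. The deposited TPM values divide by a length, and for Nbl1 the ratio of TPM to CPM, set to the WT median, lay between 0.97 and 1.27 in 29 of the 31 libraries. It was 3.804 in HET PBS 1, on 3 counts, and 1.73 in HET cisplatin 4, on 31 counts, so a per-length scale puts these near-absent libraries higher than CPM does.

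Htr6 was detected in all 15 HET libraries and was higher in the near-absent class under cisplatin, with overlap under PBS. Under cisplatin it was at 5 CPM (155 counts) in HET cisplatin 3 and 4.04 CPM (129 counts) in HET cisplatin 4. The 6 intermediate libraries held 2.23, 1.30, 1.79, 0.510, 1.93 and 2.31 CPM (HET cisplatin 1, 2, 5, 6, 7 and 8). Both near-absent libraries stood above all 6, and HET cisplatin 6, the lowest for Nbl1 among the intermediate libraries, was also the lowest for Htr6. Under PBS, Htr6 was at 0.672 CPM in HET PBS 1 and 0.820 CPM in HET PBS 6. The 5 intermediate libraries held 0.595, 0.203, 0.328, 0.572 and 0.718 CPM (HET PBS 2, 3, 4, 5 and 7), so HET PBS 7 lay above HET PBS 1.

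The summed Htr6 counts gave a near-absent to intermediate ratio of 2.72 under cisplatin (284 against 285 counts, 95% exact Poisson interval 2.3 to 3.21). Under PBS the ratio was 1.57 (51 against 80 counts, 1.08 to 2.26). Both intervals cover counting error only and not the spread between libraries, which was 0.510 to 2.31 CPM in the intermediate cisplatin libraries. Over the 15 libraries the difference in log2 CPM was 1.12, with a two-sided exact permutation p of 0.0153 when classes were relabelled within treatment (588 relabellings, smallest possible p 0.0017). In the fit across all genes, edgeR's quasi-likelihood test gave a log2 difference of 1.15 (SE 0.31, 95% interval 0.49 to 1.81, unadjusted p = 0.00204) with an adjusted p of 0.999. The class difference under cisplatin minus that under PBS was 0.83 on the log2 scale (SE 0.65, unadjusted p = 0.224), so a difference between treatments was not detected. Htr6 was known from earlier results of these data, so its value describes these libraries and is not a new call. Without HET cisplatin 3 the permutation p was 0.068.

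Against WT, both classes showed Htr6. WT libraries held 0 to 2 Htr6 counts each except WT PBS 6, which held 22 (0.639 CPM) together with an Nbl1 level at 56.3% of the WT PBS mean. In the fit over all 31 libraries, averaged over treatments, Htr6 was higher than in WT by a log2 difference of 5.50 in the near-absent class (SE 0.62, adjusted p = 2.05e-05) and 4.44 in the intermediate class (SE 0.55, adjusted p = 0.000155), both by edgeR's quasi-likelihood test. Since WT was close to 0, these log2 values depend on the prior count. The 2 comparisons share the 16 WT libraries. The cisplatin to PBS ratio of Htr6 was 6.03 in the near-absent class (95% exact Poisson interval 4.46 to 8.29) and 3.48 in the intermediate class (2.71 to 4.52), on summed counts. These intervals too leave out the spread between libraries.

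**Figure D1:**
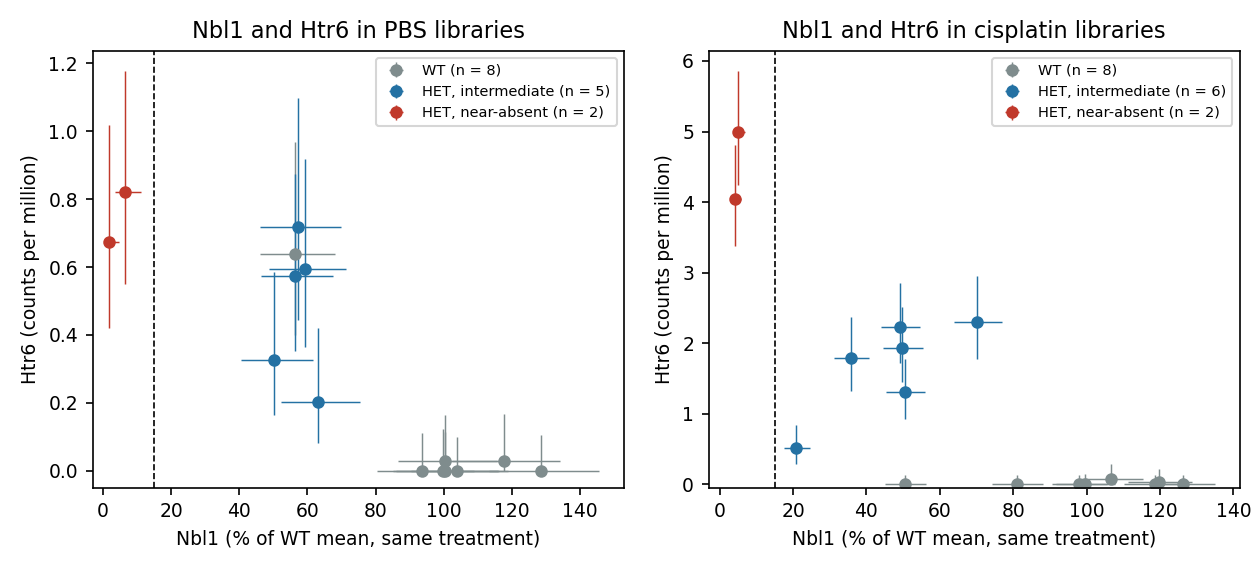
Nbl1 (horizontal, % of the WT mean of the same treatment) against Htr6 (vertical, CPM of the total count), 1 point per library, PBS at left and cisplatin at right, with 95% exact Poisson intervals of the counts as bars and the 15% cutoff dashed. The near-absent cisplatin libraries sit at 4.04 and 5 CPM of Htr6, above the intermediate ones at 0.510 to 2.31 CPM, while under PBS the classes overlap and WT PBS 6 lies among the intermediate HET libraries.

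Depth over the 15 HET libraries ran from 26.87 to 36.7 (in units of 1e+06 counts). Under cisplatin the near-absent libraries, at 31 and 31.92, were deeper than all intermediate ones, at 26.87 to 30.69. Under PBS the near-absent 32.71 and 35.37 lay within the intermediate range of 29.23 to 36.7. All 7 kidney markers given here (Lrp2, Slc34a1, Slc12a1, Umod, Slc12a3, Aqp2 and Pecam1) were present in each HET library, from 52.4 to 7470 CPM. The share of mitochondrial counts was 8.46% and 8.47% in the near-absent PBS libraries against 7.96% to 8.52% in the intermediate ones, and 3.54% and 4.03% against 3.12% to 5.12% under cisplatin. Of the 4 near-absent animals, 3 have animal numbers in the 600s and HET PBS 1 has a lower one, as do 2 of the 5 intermediate PBS animals. HET cisplatin 4 stood apart from all other libraries by genes of the adrenal cortex, and HET cisplatin 6 stood apart from the other HET cisplatin libraries by low macrophage genes and by erythrocyte genes. From here on, levels are CPM after TMM scaling, except that levels summed over a gene list are CPM of the total count. In these bulk samples, fewer cells of a type and less RNA per cell cannot be told apart.

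Beyond Nbl1, no gene differed between near-absent and intermediate libraries at an adjusted p under 0.05 when treatment was a covariate. The count was 0 of 20050 genes (0%) by edgeR's quasi-likelihood test with Benjamini-Hochberg adjustment, and the smallest adjusted p was 0.82. At an unadjusted p under 0.05 there were 837 genes (4.17%), 365 higher (1.82%) and 472 lower (2.35%), where equal shares would give 1002.5 in each bin of 0.05. DESeq2 called 5 genes: Zfp395, Zc3h6, Atf7ip and Rsrp1 lower and Star higher. The count rests on which genes were tested: without a low-count filter 7 were called (Akr1cl, Chga, Cyp11a1, Cyp21a1, Hsd3b1, Nr5a1 and Scg2, of steroid-making and chromaffin cells), none of which passed the usual filter. Of these, Cyp11a1, Hsd3b1 and Nr5a1 were at 61.6, 114 and 8.79 CPM in HET cisplatin 4 and at most 0.201, 0.235 and 0.107 CPM in the other 14 HET libraries. Leaving out HET cisplatin 3 gave 17 calls, HET PBS 6 gave 3 and HET PBS 1 gave 1, and leaving out HET cisplatin 4 gave 0. With a near-absent library left out, 1 remained in its treatment, so a gene high in 1 library alone could pass the filter. The calls included Cyp11a1 and Cyp21a1 without HET cisplatin 3, Nr5a1 and Hsd3b1 without HET PBS 6, and Hsd3b1 without HET PBS 1. For comparison, cisplatin against PBS in the same 15 libraries called 10962 genes (54.7%). The median half-width of the 95% interval of a log2 difference was 0.326, and 72.3% of the genes had a half-width under a 1.5-fold change, before adjustment.

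**Figure D2:**
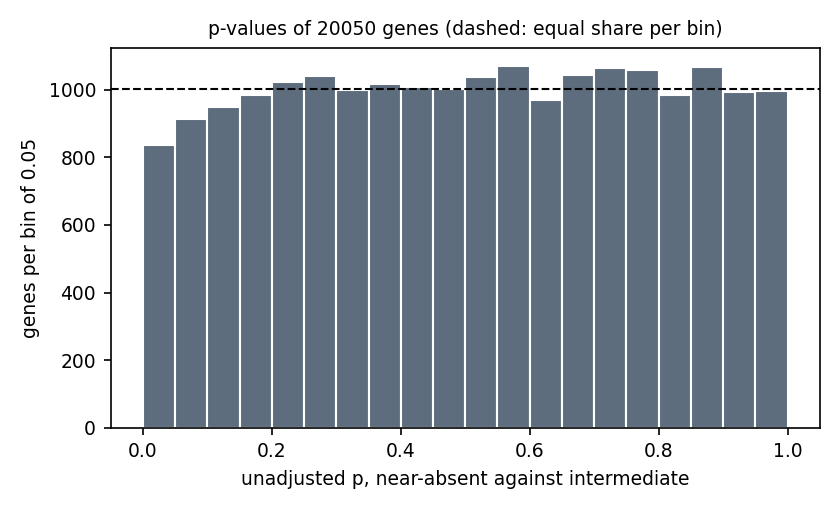
Unadjusted p-values of the comparison of near-absent with intermediate libraries, 20050 genes in 20 bins of 0.05, with the number per bin that equal shares would give as a dashed line (1002.5). The lowest bin holds 837 genes and the next 914, both under the dashed line, so edgeR's quasi-likelihood test gave no excess of small p-values. This depends on the method: limma voom with quality weights gave 1636 of the 20050 genes an unadjusted p under 0.05, above the dashed line.

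The smallest p belonged to Zfp395, a zinc finger protein gene (chr14:65358389-65398930). It was at 13.7 and 13.9 CPM in the near-absent PBS libraries against 18.1 to 22.1 CPM in the 5 intermediate ones, and at 15.6 and 13.4 CPM against 16.4 to 21.5 CPM in the 6 intermediate cisplatin libraries. The classes did not overlap under either treatment. The log2 difference was -0.46 (SE 0.08, unadjusted p = 5.23e-05, adjusted p = 0.82 by edgeR's quasi-likelihood test). WT libraries under PBS, from 12.3 to 20.3 CPM, covered the near-absent levels.

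Atf7ip, which encodes a partner of the histone methyltransferase SETDB1, was at 74.5 and 79.6 CPM in the near-absent PBS libraries against 80.6 to 104 CPM. Under cisplatin it was at 92.0 and 98.9 CPM against 114 to 128 CPM. The log2 difference was -0.32 (SE 0.07, unadjusted p = 0.000194). The classes again did not overlap, by a wide gap under cisplatin and by about 1 CPM under PBS.

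Rsrp1, an arginine- and serine-rich protein gene on the same chromosome as Nbl1 (chr4:134923592-134927671), was at 140 and 156 CPM against 163 to 199 CPM under PBS. It was at 112 and 122 CPM against 141 to 160 CPM under cisplatin, with no overlap in either (log2 -0.32, SE 0.07, unadjusted p = 0.000213). Foxk1, a forkhead transcription factor gene, also did not overlap, with 52.0 and 51.6 CPM against 54.1 to 64.6 CPM under PBS and 48.3 and 44.1 CPM against 52.1 to 56.2 CPM under cisplatin. Its log2 difference was -0.22 (SE 0.05). Near-absent libraries were the lower ones in each of these genes.

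Zc3h6, a zinc finger gene of the CCCH type, was at 4.45 and 6.26 CPM in the near-absent PBS libraries against 8.68 to 14.8 CPM. Under cisplatin it was at 12.4 and 10.1 CPM against 12.2 to 21.9 CPM, where HET cisplatin 7 lay just under HET cisplatin 3. Its log2 difference was -0.86 (SE 0.18, unadjusted p = 0.000185), and the WT PBS libraries overlapped the near-absent ones. Mpzl2, which encodes an adhesion protein of epithelia, had a log2 difference of -0.43 (SE 0.09) and overlapped only under cisplatin. Gm49044, a processed pseudogene, and Gm32569, annotated as an antisense gene, had log2 differences of -1.28 (SE 0.29) and -2.50 (SE 0.59) at levels under 1 CPM in every HET library. Both are uncertain: reads of a processed pseudogene can come from its near-identical parent gene, and reads of an antisense gene cannot be told from its partner's without knowing the strand setting.

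The other 2 of the 10 genes with the smallest p, Mgarp and Star, were high in 1 library only. Star, the cholesterol carrier that starts steroid synthesis in the adrenal gland and gonads, was at 204 CPM in HET cisplatin 4 and from 0.977 to 2.11 CPM in the other 14 HET libraries. Mgarp, a mitochondrial protein gene of steroid-making tissue, was at 8.38 CPM there and at most 0.559 CPM elsewhere in HET. Across the adrenal cortex list (Cyp11a1, Cyp11b1, Cyp11b2, Cyp21a1, Star and Mc2r), HET cisplatin 4 had a summed level of 660 CPM with none of the 6 at 0. The other near-absent libraries had 1.22, 1.55 and 2.23 CPM, with 2 to 4 of the 6 at 0, and the intermediate ones had 1.06 to 2.79 CPM, with 2 to 5 at 0. Cyp11b1 and Cyp21a1, enzymes that make corticosteroids, were at 146 and 165 CPM in HET cisplatin 4, against 0 and at most 0.0961 CPM.

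**Figure D3:**
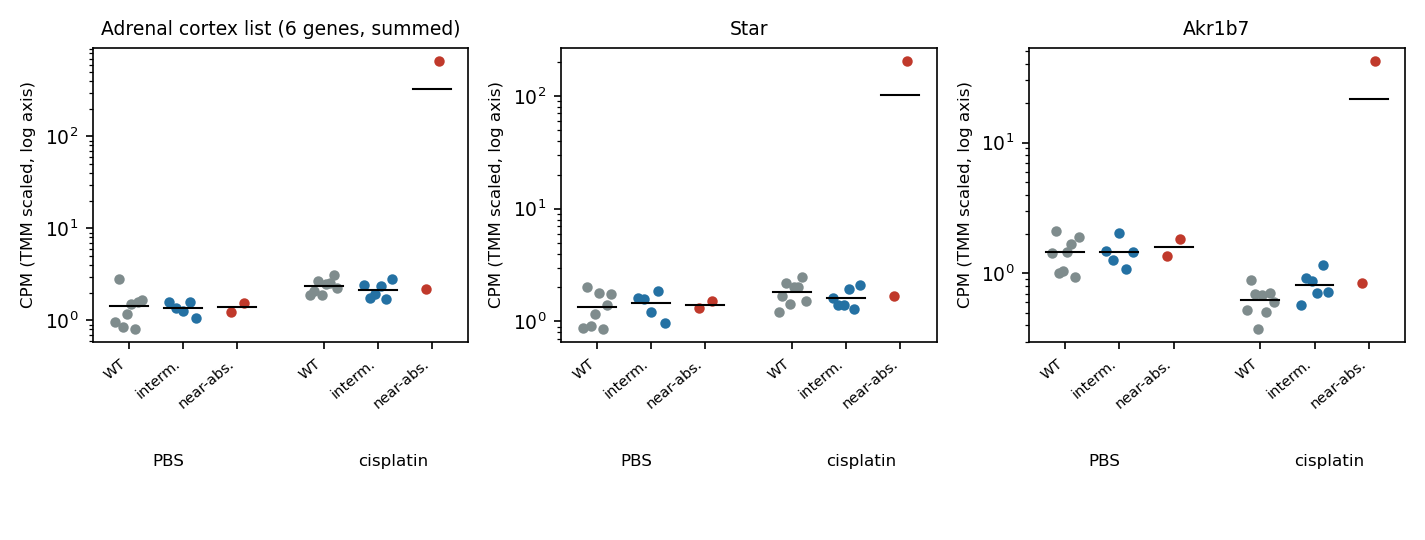
Levels of the adrenal cortex list summed over its 6 genes, of Star and of Akr1b7, on a log axis, 1 point per library with class means as lines. Star and Akr1b7 are in CPM after TMM scaling. The summed list is in CPM of the total count, although its axis is labelled as TMM scaled. HET cisplatin 4 is the single high point in each panel (660, 204 and 41.9 CPM), and the other near-absent cisplatin library lies among the intermediate ones.

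Under PBS 0 of 20050 genes (0%) were called by edgeR's quasi-likelihood test (630, or 3.14%, at an unadjusted p under 0.05), while DESeq2 called 15. Under cisplatin 1 gene (0.00499%) was called, Star, with a log2 difference of 5.99 and an adjusted p of 0.0425 (816 genes, or 4.07%, unadjusted). Without HET cisplatin 4 its log2 difference was 0.06 with an adjusted p of 1, and no gene was called. Without any 1 of the 6 intermediate cisplatin libraries Star was also not called, but its log2 difference stayed at 5.93 to 6.08. Without HET cisplatin 3, HET cisplatin 4 was the only near-absent cisplatin library. Akr1b7 and Cyp11a1, both high in HET cisplatin 4, were then among the genes called, with a log2 difference of 5.67 for Akr1b7. The difference of the class effect between treatments had 0 calls (0%; 3.02% of genes at an unadjusted p under 0.05), and 2 by DESeq2. Akr1b7, an aldo-keto reductase of the adrenal cortex at 41.9 CPM in HET cisplatin 4, had a log2 difference of 4.70 under cisplatin that did not pass the threshold.

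Against WT, 3 of 20680 genes (0.0145%) were called higher in the near-absent class by edgeR's quasi-likelihood test: Htr6, Star and Akr1b7. Without HET cisplatin 4 only Htr6 was called, and the log2 differences of Star and Akr1b7 went from 2.95 and 2.62 to -0.02 and 0.29. Without HET PBS 6 only Htr6 was called too, but they stayed at 2.90 and 2.50. Without HET cisplatin 3, HET cisplatin 4 was the only near-absent cisplatin library, and Cyp11a1 and Nr5a1 were then called too. In the intermediate class 2 genes (0.00967%) were called higher, Htr6 and Sesn2, a stress-induced p53 target, with a log2 difference of 0.61 and an adjusted p of 0.0368. For Sesn2 the near-absent value against WT was 0.26. Without WT PBS 6 and WT cisplatin 6, the WT libraries with the lowest Nbl1, Sesn2 had an adjusted p of 0.148 with a log2 difference of 0.60. Its level was 65.5 to 158 CPM in the intermediate PBS libraries against 40.1 to 67.4 CPM in WT, and 85.5 to 113 CPM against 82.1 to 99.1 CPM under cisplatin, so the groups overlapped under both treatments.

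The other secreted BMP antagonists did not differ past the threshold, and their median was close to that of all genes. Of 18 listed, 14 were tested, 0 were called, and the median log2 difference was 0.06, against 0.00 over all genes. At an unadjusted p under 0.05 there was 1, Chrdl1, which encodes chordin-like 1. It was at 13.3 and 11.8 CPM in the near-absent PBS libraries against 7.66 to 11.3 CPM, and at 2.48 and 3.21 CPM against 0.932 to 2.56 CPM under cisplatin. The classes overlapped under cisplatin only, and the log2 difference was 0.53 (SE 0.20, unadjusted p = 0.0157). Nog, which encodes noggin, had a log2 difference of 0.63 (SE 0.34) at levels under 1 CPM. The DAN family relative Grem1, which encodes gremlin 1, had a log2 difference of -0.28 (SE 0.62), with a wide interval.

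Of 16 listed BMP and activin ligands 12 were tested and 0 were called, with a median of -0.06 and none at an unadjusted p under 0.05. Bmp7, the main BMP of tubule cells, had a log2 difference of -0.10 (SE 0.18). Bmp4 was at 29.5 and 32.2 CPM against 29.8 to 38.2 CPM under PBS, and at 26.1 and 27.0 CPM against 28.2 to 31.2 CPM under cisplatin. Both cisplatin near-absent libraries lay under all intermediate ones, while under PBS the classes overlapped (log2 -0.13, SE 0.07). Limma on log2(TPM + 1) gave Bmp4 a value of 0.01, of the opposite sign.

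Receptors and Smads were the most tightly measured of the 4 BMP lists. Of 16 listed 14 were tested and 0 were called, with a median of 0.00 and a median SE of 0.08. Bmpr1a, a type I receptor, was at 106 and 102 CPM against 89.2 to 105 CPM under PBS and at 109 and 104 CPM against 97.7 to 108 CPM under cisplatin. Its log2 difference was 0.06 (95% interval -0.04 to 0.17). Bmpr2, the type II receptor, had 0.02 (SE 0.05), Smad1 0.05 (SE 0.13), Smad5 -0.07 (SE 0.06) and Smad4 0.05 (SE 0.06). Acvrl1, a receptor of vessel walls, had 0.13 (SE 0.08).

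BMP target genes gave no calls. Of 12 listed 11 were tested, 0 were called and none had an unadjusted p under 0.05, with a median of -0.11. The mean log2 level of the list in near-absent libraries lay within the intermediate range under both treatments (2.76 to 2.77 in 2.56 to 3.05 under PBS, 2.51 to 2.68 in 2.21 to 3.02 under cisplatin). Id3, an inhibitor of bHLH transcription factors and a direct target, was at 21.7 and 28.6 CPM in the near-absent PBS libraries against 30.1 to 40.2 CPM. Under cisplatin it was at 34.2 and 27.6 CPM against 19.9 to 59.3 CPM, so the classes were apart under PBS and overlapped under cisplatin (log2 -0.41, SE 0.22, unadjusted p = 0.0776). Id3 lies on the same chromosome as Nbl1 (chr4:136143497-136145755). Id1, Id2, Smad6 and Smad7, which also respond to BMP, had log2 differences of -0.06 (SE 0.25), 0.06 (SE 0.18), -0.17 (SE 0.13) and -0.12 (SE 0.14).

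**Figure D4:**
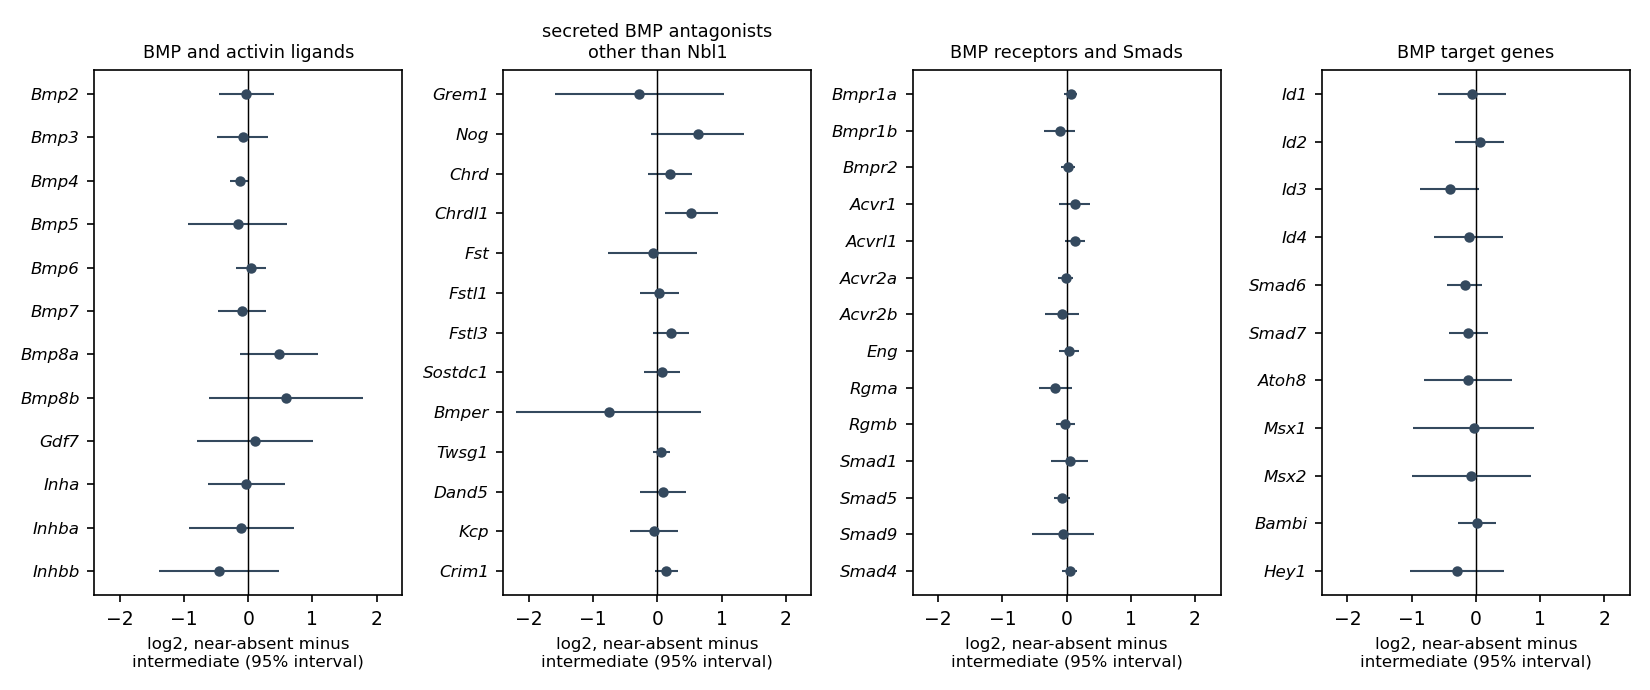
Log2 difference of near-absent minus intermediate libraries (horizontal) with its 95% interval for tested genes of 4 lists, 1 antagonist left out: ligands, antagonists other than Nbl1, receptors and Smads, and targets. Chrdl1 is the single gene shown whose interval does not reach 0, and the receptors have the narrowest intervals.

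The related TGF-beta list of ligands, receptors and targets had 13 tested genes, 0 called, and Tgfb3 at a log2 difference of 0.41 (SE 0.18, unadjusted p = 0.0398). Among serotonin receptors and handling genes other than Htr6, 9 of 18 were tested and 0 were called. Htr4, another serotonin receptor linked to cyclic AMP, was at 0.249 and 0.402 CPM against 0.508 to 0.890 CPM under PBS and at 0.408 and 0.304 CPM against 0.201 to 1.22 CPM under cisplatin. Its log2 difference was -1.13 (SE 0.36, unadjusted p = 0.00658), opposite in sign to Htr6. Htr1b, a receptor that lowers cyclic AMP, had -0.21 (SE 0.21).

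Genes around Nbl1 gave no calls by edgeR's quasi-likelihood test. Of 59 genes within 1 Mb, 27 were tested, 0 were called, and 1, Htr6, had an unadjusted p under 0.05, which is 3.7% against 4.17% over all genes. The median over the 27 was 0.02. Micos10, a mitochondrial membrane organiser gene that lies upstream of Nbl1 (chr4:139101814-139131113), was at 88.1 and 100.3 CPM against 81.7 to 97.5 CPM under PBS and at 76.5 and 73.6 CPM against 61.9 to 79.4 CPM under cisplatin. Its log2 difference was 0.09 (SE 0.06). Within 5 Mb, 139 genes were tested and 6 had an unadjusted p under 0.05, 3 higher and 3 lower, which is 4.32% against 4.17% over all genes. Rsrp1, which DESeq2 called, is 1 of the 3 lower. In 2 of the 139 genes, Rsrp1 among them, the classes did not overlap under either treatment, against 0.379% of all genes tested.

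Tubular injury, segment and cell type genes gave no calls between the classes. The tubular injury list had 23 tested genes with a median of 0.13 and none at an unadjusted p under 0.05. Clu, which encodes clusterin, was at 191 and 224 CPM against 135 to 236 CPM under PBS, and at 701 and 705 CPM against 276 to 633 CPM under cisplatin (log2 0.32, SE 0.17). Havcr1, the kidney injury molecule gene, had 0.38 (SE 0.47) and Lcn2, which encodes lipocalin 2, -0.32 (SE 0.34). The 26 p53 targets had a median of 0.03 and 1 member, Aen, at an unadjusted p under 0.05 (log2 0.28, SE 0.12).

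Proximal tubule lists were level. The 18 genes of segments S1 and S2 had a median of -1.94e-05 and the 12 genes of S3 had 0.05, with 0 calls and none at an unadjusted p under 0.05. Lrp2, which encodes the uptake receptor megalin, had a log2 difference of 0.01 (SE 0.28), so its interval was wide. The lists of the thick ascending limb, distal convoluted tubule, principal cells, intercalated cells, podocytes and endothelium had medians between -0.05 and 0.06 and 0 calls. The fibroblast and matrix list had a median of 0.19 (13 genes) and the macrophage list 0.28 (11 genes), both with 0 calls and no member at an unadjusted p under 0.05.

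HET cisplatin 6 was the lowest HET cisplatin library for macrophage genes. The summed level of the 11 macrophage genes was 211 and 282 CPM in the near-absent cisplatin libraries, and it ran from 183 to 243 CPM in 5 intermediate ones with HET cisplatin 6 at 55.9 CPM. Under PBS it was 94.1 and 113 CPM against 93.1 to 127 CPM. The 6 erythrocyte genes summed to 26.7 CPM in HET cisplatin 6 and at most 1 CPM in the other HET cisplatin libraries, against 30.8 CPM in WT cisplatin 6 and 248 to 1556 CPM in the PBS libraries. Without HET cisplatin 4 and HET cisplatin 6 together, 0 genes were called and 745 had an unadjusted p under 0.05.

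Circadian clock genes had 17 tested members, 0 called and 2 (11.8%) higher at an unadjusted p under 0.05, against 1.82% higher over all genes. Their median log2 difference was 0.05. Per2, a repressor within the clock, was at 106 and 74.5 CPM in the near-absent PBS libraries against 56.1 to 73.9 CPM, and at 68.9 and 63.4 CPM against 44.6 to 64.2 CPM under cisplatin. The log2 difference was 0.43 (SE 0.10, unadjusted p = 0.000762). Nfil3, a transcription factor with a daily rhythm, was at 42.4 and 35.3 CPM under cisplatin against 8.05 to 29.6 CPM, and at 17.2 and 17.8 CPM under PBS against 7.85 to 20.2 CPM, where the classes overlapped (log2 over both treatments 0.85, SE 0.31). The hour of collection was not given in these sources.

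A count that does not use the model gave 76 genes (0.379%) whose near-absent libraries all lay on 1 side of all intermediate libraries under both treatments, 31 higher (0.155%) and 45 lower (0.224%). Of the 45 lower genes 60.0% were protein coding and 16 had a Gm symbol for a predicted gene. Of the 31 higher genes 93.5% were protein coding and 1 had such a symbol, against 77.0% and 18.6% of all genes tested. Besides Zfp395, Atf7ip, Rsrp1, Foxk1 and Gm49044, the lower genes included Runx1t1, a transcriptional corepressor (log2 -0.73, SE 0.19), and Spry1, an inhibitor of receptor tyrosine kinase signalling that is needed for kidney development (log2 -0.43, SE 0.14). These 2 were chosen after their values were seen. The count was not tested. With 2 near-absent libraries per treatment, some genes can separate under arbitrary labels too, so the count by itself shows no class difference.

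The higher genes included 4 genes of heat shock proteins and co-chaperones, also chosen after their values were seen. Hspb1, a small heat shock protein, was at 36.5 and 36.6 CPM in the near-absent PBS libraries against 7.62 to 17.6 CPM in the intermediate ones and 7.71 to 15.7 CPM in WT. Under cisplatin it was at 59.5 and 62.3 CPM against 13.0 to 55.8 CPM (log2 over both treatments 1.05, SE 0.29, unadjusted p = 0.00252, adjusted p = 0.999). Stip1, a co-chaperone that links Hsp70 to Hsp90, was at 118 and 116 CPM against 56.2 to 85.2 CPM under PBS and at 54.8 and 58.1 CPM against 46.0 to 54.6 CPM under cisplatin. The gap was wide under PBS and narrow under cisplatin for both genes.

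Dnaja4, an Hsp40 co-chaperone, was at 64.5 and 66.0 CPM against 25.6 to 51.7 CPM under PBS, and at 19.5 and 23.3 CPM against 15.5 to 19.4 CPM under cisplatin. Hsp90ab1, the constitutive cytosolic Hsp90, was at 1710 and 1780 CPM against 1000 to 1440 CPM under PBS, and at 661 and 687 CPM against 527 to 654 CPM under cisplatin. The WT PBS libraries lay under the near-absent ones for all 4 genes. Under cisplatin the highest WT library reached 55.9 CPM for Stip1, 19.55 CPM for Dnaja4 and 676 CPM for Hsp90ab1, each above the lower near-absent library, and 54.0 CPM for Hspb1, below it. None of the 4 passed the threshold between the classes in the fit across all genes. Against WT, DESeq2 called Hspb1, alone of the 4, in the near-absent class. There edgeR's quasi-likelihood test gave Hspb1 a log2 difference of 1.09 (SE 0.22, adjusted p = 0.114). For Stip1 the class effect under cisplatin minus that under PBS was -0.53 (SE 0.19, unadjusted p = 0.0133 by edgeR's quasi-likelihood test). It was -0.36 (SE 0.20) for Hsp90ab1, -0.52 (SE 0.29) for Dnaja4 and -0.93 (SE 0.58) for Hspb1, each with an unadjusted p above 0.05. This difference passed the adjusted threshold for none of the 4.

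**Figure D5:**
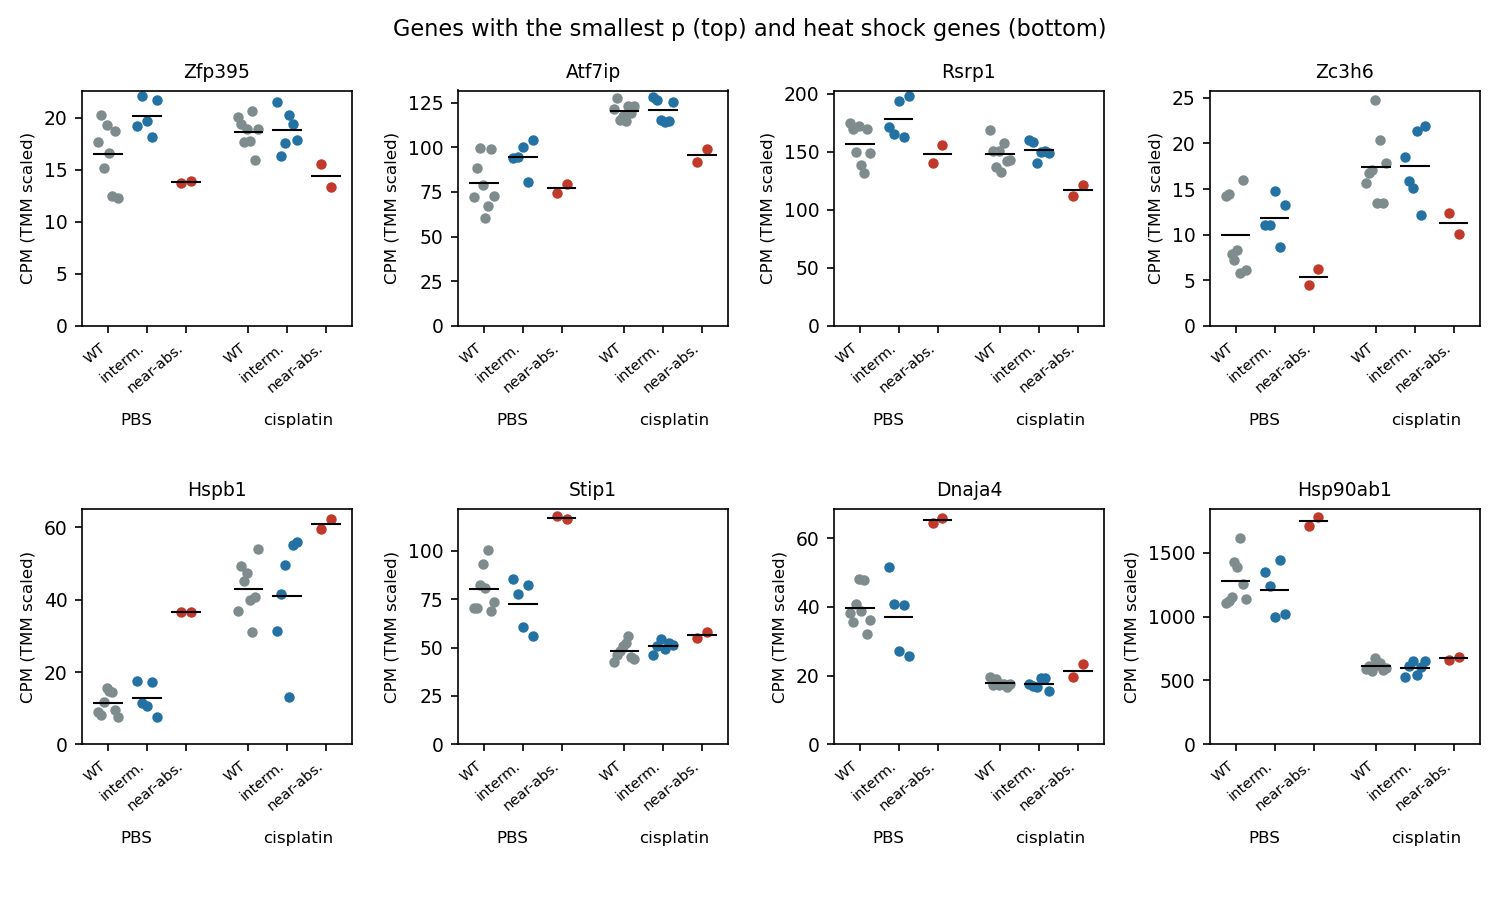
Levels in CPM after TMM scaling, 1 point per library with class means as lines: Zfp395, Atf7ip, Rsrp1 and Zc3h6 from the genes with the smallest p (top row), and Hspb1, Stip1, Dnaja4 and Hsp90ab1 (bottom row), for WT, intermediate and near-absent libraries under PBS and cisplatin. The near-absent points lie under the intermediate ones in the top row, with 1 overlap for Zc3h6 under cisplatin, and above them in the bottom row.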

How the data were processed

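The authors deposited 1 table of 55487 genes with expected counts, TPM and FPKM for each of 31 libraries, as its headers and values show. The submitters' processing notes name the tools STAR, fastp and featureCounts and the builds mm10 and GRCm38, without versions or roles. The deposited expected counts are not normalized, and 12.52% of the values are not whole, so they were rounded before testing. Within each library the deposited FPKM equalled TPM times a constant to within 0.164% (TPM above 5), and FPKM had no other use. The TPM deposited by the authors served only for the length check of Nbl1 and for 1 alternative.

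Tests used edgeR 4.0.16 in R 4.3.3 (quasi-likelihood, TMM scaling, filterByExpr by treatment and class), with limma 3.58.1, DESeq2 1.42.0 and sva 3.50.0 for alternatives. The design was treatment plus class over the 15 HET libraries. Values within a treatment and the difference between treatments came from a model of 4 cells, and comparisons with WT from a model of 6 cells over 31 libraries. Adjustment was by Benjamini-Hochberg over all genes tested except Nbl1, with a threshold of 0.05. Log2 CPM for the permutation test had a prior count of 2. The fits were tested on simulated data.

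Members, gene lists and tests were chosen with earlier results of these data known. Genes named are Htr6, the 10 with the smallest p, the up to 4 smallest p of each list, genes within 1 Mb of Nbl1 and genes called within a treatment. Others named from a list stand for its best-known members, and those chosen after their values were seen are marked. A few genes are not reported here. Positions come from GENCODE M21 (55227 identifiers matched) and promoter stretches from RefSeq, where both genes matched. Each library has its own animal number, and nothing else says that the samples are separate animals. P-values then measure the spread between these samples. The highest correlation between libraries was 0.9865, and no 2 libraries were identical.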

Additional observations from a re-analysis of the deposited data

Results flagged for a closer look

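In 17 of 108 sets of 7 or 8 libraries of 1 labelled group, the highest or lowest library stood apart from the rest by Dixon's 95% criterion. That criterion flags about 1 in 20 sets by chance when values are normal and sets are independent. Here the values had no log, many genes were named for a small p in these libraries, and several flags share a library. The 17 can therefore not be set against that rate. Levels are CPM after TMM scaling unless stated, levels summed over a list are CPM of the total count, and no explanation was tested.

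HET cisplatin 4, of the near-absent class, was the high library for 5 adrenal measures. These were the summed adrenal cortex list (660 CPM against 1.72 to 2.79 in the other 7), Star (204 against 1.28 to 2.11), Akr1b7 (41.9 against 0.571 to 1.15), Mgarp (8.38 against 0.128 to 0.559) and Mc2r, the corticotropin receptor (4.89 against 0.0539 to 0.32). HET cisplatin 6, the intermediate library with the least Nbl1, was high for the summed erythrocyte list (26.7 CPM against 0.129 to 1). It was low for the macrophage list (55.9 against 183 to 282) and for Spp1, the osteopontin gene (2350 against 4070 to 5550).

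Among the PBS libraries of the near-absent class, HET PBS 6 was high for Mgarp (0.167 CPM against 0 to 0.0697), and low for Htr1b (1.54 against 3.09 to 4.25). HET PBS 1 was high for Per2 (106 CPM against 56.1 to 74.5) and Acvrl1 (18.9 against 14.2 to 15.9). In the intermediate class, HET PBS 7 was low for Bmpr1a (89.2 CPM against 99.4 to 106). The immediate early gene Fos was high in HET PBS 2 (289 CPM against 1.17 to 56.4) and in HET cisplatin 7 (201 against 4.35 to 73.9), and the list of B and plasma cells in HET cisplatin 2 (8.38 against 3.46 to 5.39). WT PBS 6 was high for Htr6, at 0.639 CPM of the total count against 0 to 0.0299 in the other WT PBS libraries.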

How the results depend on the processing

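The count of genes that differed between the classes was 0 with limma voom, RLE scaling, library totals, 2 surrogate variables, and the tubular injury level or animal number range as covariate. It was also 0 with animals of that range alone, a cutoff of 25%, log2 Nbl1 as a continuous term and log2(TPM + 1). Leaving out HET cisplatin 4 and HET cisplatin 6, added after seeing the data, gave 0 too. A cutoff of 10% selected the same 4 near-absent libraries as the main fit. So did a WT mean without WT PBS 6 and WT cisplatin 6, also added after seeing the data. Both repeat the main fit and are no separate check. The count was 5 with DESeq2, 7 without a low-count filter, 4 with a mean count of at least 10, 2 with all 31 libraries in the fit (Star and Akr1b7), and 0 to 17 when 1 library was left out, highest without HET cisplatin 3. The 7 genes called without a filter did not pass the usual one.

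Under PBS DESeq2 gave 15 calls. Under cisplatin there were 7 with DESeq2, 0 with that treatment alone, 0 without HET cisplatin 4 and HET cisplatin 6, and 0 to 37 leaving out 1 library. The difference between treatments had 2 calls with DESeq2 and 0 to 4 leaving out 1 library. Against WT the near-absent class had 8 calls with DESeq2 and 1 to 14 leaving out 1 library, and the intermediate class had 1 without WT PBS 6 and WT cisplatin 6. The Htr6 difference was 0.98 to 1.2 leaving out 1 library, with exact permutation p from 0.00714 to 0.068. The genes that did not overlap numbered 83 to 286, and since fewer libraries make overlap rarer, this range does not bear on stability. Leaving out 1 library for these genes and for the difference between treatments, and each setting that leaves out a named pair of libraries, was chosen after seeing the data.

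Signs turned for Bmp4 with log2(TPM + 1) (0.00822), Spp1 at the 25% cutoff (-0.0481) and Akr1b7 under cisplatin without HET cisplatin 4 and HET cisplatin 6 (-0.0182). Leaving out 1 library gave Mc2r -0.0351 to 2.91, Htr1b -0.39 to 0.031 and Star against WT -0.016 to 3.44. The cause was not tested. No paired analysis was possible because the labels give each library its own animal number and no number shared between groups.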

Other observations

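Heat shock and chaperonin genes (symbols beginning Hsp, Dnaj or Cct with a number or subfamily letter, and Stip1) were gathered after their values were seen, so their counts are a description. Of 77 tested, 12 were higher and 0 lower in near-absent than in intermediate libraries at an unadjusted p under 0.05, or 15.6% against 1.82% higher over all genes. Their median log2 difference was 0.08, 0 were called by edgeR's quasi-likelihood test, and 5 (Stip1, Dnaja4, Hspb1, Hsp90ab1 and Cct4) had classes that did not overlap under either treatment, with near-absent higher, as did 0.155% of all genes. Members of such families are not independent of one another.

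Genes with a Zfp symbol, also gathered after seeing values, leaned the other way: of 349 tested, 5 were higher and 18 lower at an unadjusted p under 0.05, with a median of -0.05 and 0 called by edgeR's quasi-likelihood test. Of these 5.16% were lower, against 2.35% over all genes. Alas1, the first enzyme of haem synthesis, was at 360.6 and 466.5 CPM in the near-absent PBS libraries against 110 to 337 CPM, and at 174 and 220 CPM against 95.5 to 170 CPM under cisplatin (log2 0.83, SE 0.23). P4ha2, a collagen prolyl hydroxylase, had a log2 difference of 0.37 (SE 0.09) with no overlap of the classes under either treatment. WT libraries reached these levels only in part. For Alas1 they held up to 378 CPM under PBS, above the lower near-absent library only. Under cisplatin they held up to 148 CPM of Alas1, under both near-absent libraries. For P4ha2 they held up to 27.5 CPM under PBS, under the near-absent 28.2 and 35.6 CPM. Under cisplatin they held up to 28.6 CPM of P4ha2, where the near-absent libraries held 26.6 and 27.3 CPM.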
